A study of Mus musculus with 2 samples.

Results

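Replication-dependent histone genes are the protein-coding mouse genes whose symbols begin with Hist1h, Hist2h, Hist3h or Hist4, and their levels did not enter that rule. The set and the gene lists beside it were chosen with earlier results of these data known. The GENCODE M21 annotation holds 67 such genes. The deposited tables list 64 of them among 43346 Ensembl genes, and 21474 of these are protein-coding. The members are 6 genes of linker histone H1, 18 of H2A, 15 of H2B, 12 of H3 and 13 of H4. Hist1h2bh, Hist1h2bm and Hist2h2bb have no gene entry of their own in the tables. A transcript of Hist2h2bb is listed under another gene identifier, at TPM values of 4.74 (pup 1) and 3.29 (pup 2), and is not counted below. Short transcripts of Hist1h2bq (388 bases) and Hist1h2br (381 bases) are likewise listed outside the entries of these genes. The values of both genes leave them out.

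The samples were the whole stomachs of 2 newborn pups (day 0) of the mouse strain B6NCrl, both from the same dam by their labels, with 1 total RNA library each. Neither pup carried a labelled treatment or altered gene, and their sex was not collected. Libraries were made from 10 ng of RNA longer than 200 bases with spike-in RNA added. All 12 stomach genes checked, led by the trefoil peptide gene Tff1, the gastrokine Gkn2 and the smooth muscle actin gene Acta2, were detected in both pups. Expected counts (reads assigned to genes, which need not be whole numbers) summed to 51524479 in pup 1 and 49983574 in pup 2. The pups are the only replicates of 1 group, so each mean ± SD below is over n = 2 and a difference between them has no replicate check and no p-value.

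Histones are the proteins around which DNA is wound. H2A, H2B, H3 and H4 form the core of the nucleosome, and H1 binds the linker DNA where it enters and leaves. The replication-dependent genes supply them while DNA is copied in S phase, are mostly short and without introns, and lie in clusters. Their mRNAs are not polyadenylated as other mRNAs are: they end just after a short hairpin, the histone stem-loop, which the stem-loop binding protein Slbp holds while the U7 small nuclear ribonucleoprotein guides the cut. By contrast, most replacement histones come from ordinary polyadenylated mRNAs throughout the cell cycle.

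The stem-loops are shown here because they are the feature that sets these mRNAs apart and because they differ between classes. A stem-loop matching the metazoan consensus was found after the stop codon in GENCODE M21 transcripts of 44 of the 64 members, in 8 distinct sequences. The remaining members have no match in the annotated transcript, and for some, such as Hist1h1b and Hist1h3i, the annotated transcript ends at the stop codon. In each line below the 16 bases of the stem-loop are in capitals, with up to 5 flanking bases, for the most abundant member of each class that has a match and for Hist2h4, whose H4 stem-loop differs from that of Hist1h4d.
Hist1h1c, chr13:23739507-23739532, plus strand: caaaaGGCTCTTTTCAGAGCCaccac
Hist1h2ap, chr13:21833026-21833049, minus strand: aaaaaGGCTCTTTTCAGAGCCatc
Hist3h2ba, chr11:58949344-58949369, plus strand: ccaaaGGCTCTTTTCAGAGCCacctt
Hist1h3d, chr13:23576239-23576264, plus strand: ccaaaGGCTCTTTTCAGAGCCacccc
Hist1h4d, chr13:23581945-23581970, plus strand: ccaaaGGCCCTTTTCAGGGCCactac
Hist2h4, chr3:96262934-96262959, minus strand: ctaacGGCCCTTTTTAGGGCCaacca
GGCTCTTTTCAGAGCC was the form in 24 members (3 H1, 10 H2A, 6 H2B and 5 H3 genes). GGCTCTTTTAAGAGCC was found in 6 members (1 H1, 2 H2B and 3 H3 genes). H4 genes carried others: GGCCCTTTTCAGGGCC in 7, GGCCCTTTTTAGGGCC in 2 and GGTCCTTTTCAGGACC in 2 H4 genes, and none of these 3 in another class. Hist1h2bc, the most abundant H2B gene, has no match in its annotated transcripts. In Hist1h2ap the A bases before the stem-loop belong to a run of 12 A. Among the 46 members whose transcript has the same length in GENCODE M21 as in the tables, runs of 8 or more A were found in Hist1h2ap and its near-copy Hist1h2ao, and the next longest run was 7.

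Together the 64 genes had a summed TPM (a level scaled to transcript length and library size, with the same total in each library) of 2693 in pup 1 against 1900.4 in pup 2, a mean of 2297 ± 561. Their expected counts were 50898 and 36135, which is 0.0988% (exact 95% binomial interval 0.0979 to 0.0996) and 0.0723% (0.0716 to 0.0730) of all counts. These and the other binomial intervals cover counting error only, since PCR reads without molecular identifiers are not independent molecules. Both pups reached a TPM of 1 or more for 38 members, or 59.4%, beside 61.2% of all protein-coding genes. Levels were uneven: the TPM of the median member was 2.98 in pup 1 and 1.90 in pup 2, the mean TPM was 10 or more for 14 members and 100 or more for 4. The 5 highest members held 84.2% of the summed TPM in pup 1 and 85.2% in pup 2.

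H2A genes held most of the signal, with 2079.7 summed TPM in pup 1 and 1439 in pup 2. A gene of the Hist1 cluster, Hist1h2ap (chr13:21833026-21833507, minus strand, 1 exon), accounted for most of it, at 1642 in pup 1 and 1093 in pup 2, or 61.0% and 57.5% of the TPM of all members. These estimates lie just above the upper ends of their own 95% credibility intervals (1597 to 1639 and 1057 to 1092), the ranges the authors' quantification gives for a TPM. Of its 100-base windows, 92.2% also occur in another gene, mainly the neighbouring copy Hist1h2ao, which was listed at 0.99 in pup 1 and 2.21 in pup 2, so the division between these copies is uncertain and their sum, 1643 and 1095, is the safer value. Without Hist1h2ap the H2A genes summed to 437.5 in pup 1 and 346 in pup 2, still the highest class sum in either pup.

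The next H2A genes lie in the Hist2 cluster. Hist2h2aa2 (chr3:96239749-96240276) stood at 219.8 in pup 1 and 192 in pup 2, and Hist2h2aa1 (chr3:96245497-96246082) at 76.2 and 64.5. Every 100-base window of each occurs in another gene, so their sum, 296 and 257, is the safer value. Hist1h2ae (chr13:23570517-23571220) stood at 53.8 and 27.7. The lower H2A genes ranged down to Hist1h2aa, known from testis, which had 0 counts in both pups, with upper interval ends of 0.25 and 0.26 TPM.

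H2B genes summed to 205 in pup 1 and 177 in pup 2, nearly all from Hist1h2bc. Hist1h2bc (chr13:23684199-23692908) stood at 172 in pup 1 and 156 in pup 2. Far below it came Hist3h2ba of the Hist3 cluster at 6.42 and 7.65, Hist1h2bg at 6.29 and 2.75, and Hist2h2be at 2.90 and 2.74. Only 6 of the 15 H2B genes were detected in both pups, against 13 of the 18 H2A genes. The testis gene Hist1h2ba had 0 counts in both pups, with upper interval ends of 0.35 and 0.39 TPM.

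H4 genes summed to 189.95 in pup 1 and 128 in pup 2, and Hist1h4d (chr13:23581598-23582735) gave 146 and 96.1 of it. Hist1h4h followed at 14.9 in pup 1 and 11.04 in pup 2, Hist2h4 at 8.43 and 4.64, and Hist1h4c at 6.86 and 4.89. The 13 H4 genes have 12 distinct coding sequences that translate to 1 protein, so these genes differ in sequence while supplying the same histone. Hist4h4, the sole member of the Hist4 cluster on chromosome 6, stood at 0.58 and 0.51.

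H3 genes had the lowest class sum, 97.4 in pup 1 and 55.6 in pup 2, and were more evenly spread. Hist1h3i (chr13:21782960-21783370) stood at 35.9 and 25.5, Hist2h3b (chr3:96268654-96269141) at 29.4 and 14.03, Hist1h3d at 8.98 and 3.88, and Hist1h3b at 4.57 and 2.80. All 100-base windows of Hist2h3b occur in another gene. Together with its copies Hist2h3c1 and Hist2h3c2 it summed to 32.9 in pup 1 and 15.1 in pup 2.

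H1 genes summed to 122 in pup 1 and 101 in pup 2. Hist1h1c (chr13:23738808-23740367) led with 89.0 in pup 1 and 82.2 in pup 2, ahead of Hist1h1e at 20.1 and 13.2, Hist1h1b at 9.01 and 3.71, and Hist1h1d at 2.33 and 1.08. Hist1h1t, the linker histone gene known from testis, had 1 count in pup 1 and 0 in pup 2. The 9 germ cell genes checked beside it, led by Prm1 (0.20 and 0.07) and Sycp3 (0.12 and 0.13), all lay under a mean TPM of 1.

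Class sums of TPM can be set against each other within a pup, with 2 limits. How the cDNA was primed is not stated, so how fully mRNAs without a poly(A) tail were captured is unknown and was not tested. The transcript lengths behind TPM also differ in kind: the table gives Hist1h1c 1560 bases, of which 840 lie past the stem-loop, but Hist1h4d 393 bases, where GENCODE M21 has 1138. Relative to the H4 sum of the same pup, H2A stood at 10.9 in pup 1 and 11.3 in pup 2, H2B at 1.08 and 1.38, H3 at 0.513 and 0.435, and H1 at 0.640 and 0.788. The H2A ratio rests on Hist1h2ap, as the class sums above show.

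**Figure D1:**
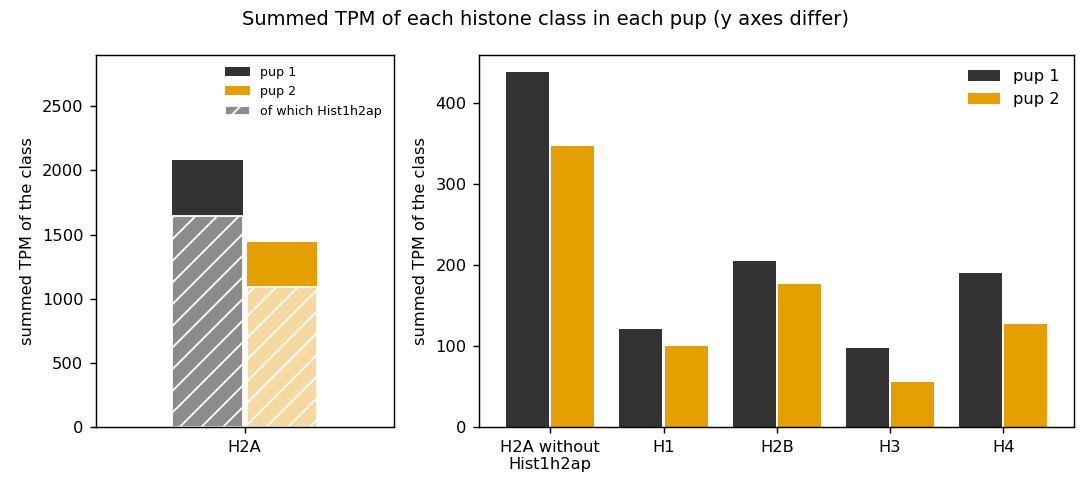
Summed TPM of each histone class (vertical axes, linear from 0, differing between the panels) in pup 1 (dark) and pup 2 (orange), with the part held by Hist1h2ap hatched in the left panel. Every class sum was lower in pup 2, from 205 against 177 for H2B to 97.4 against 55.6 for H3.

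**Figure D2:**
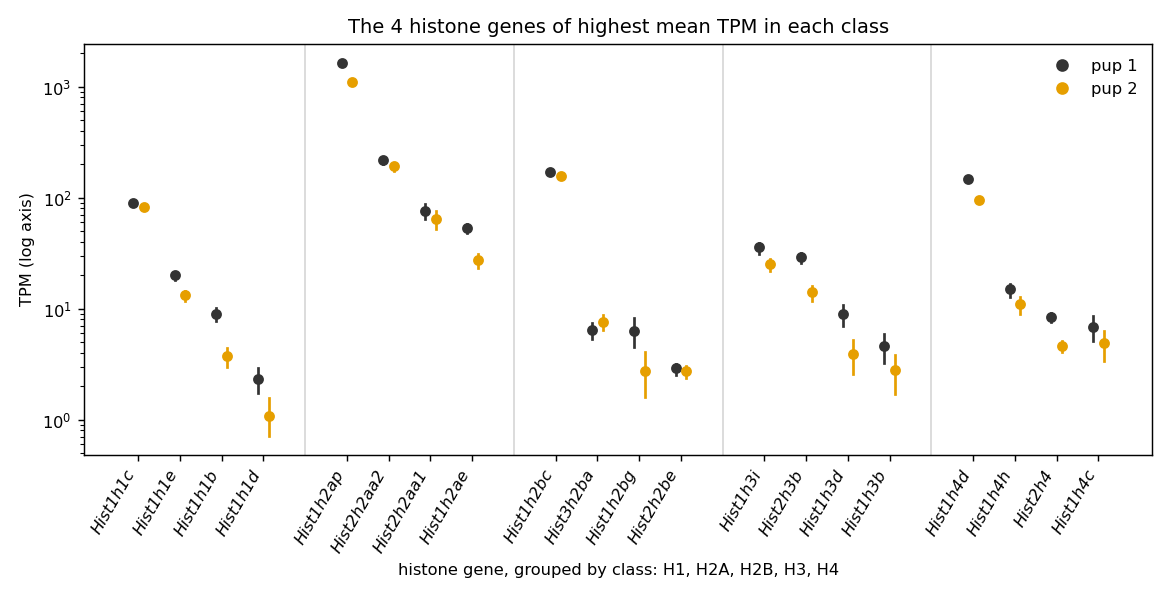
TPM (log axis) of the 4 genes of highest mean TPM in each class, with vertical lines for the deposited 95% credibility intervals, pup 1 dark and pup 2 orange. H1, H2A, H2B and H4 each have a leading gene well above the next, while Hist1h3i and Hist2h3b stand close together among H3 genes. Hist3h2ba is the gene shown that is higher in pup 2 (6.42 and 7.65), with overlapping intervals.

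By cluster, the 52 Hist1 genes on chromosome 13 held 86.3% of the members' TPM in pup 1 and 83.8% in pup 2 (85.1 ± 1.76%). The 9 Hist2 genes on chromosome 3 summed to 346 in pup 1 and 283 in pup 2. The Hist3 pair on chromosome 11, Hist3h2a and Hist3h2ba, summed to 22.7 and 24.4. Within Hist1, the 17 genes from Hist1h2bl to Hist1h2br summed to 1731 and 1147, and the 28 genes from Hist1h4h to Hist1h1a to 571 and 425. The 5 genes between these blocks, Hist1h2ah to Hist1h2bj, reached 23.0 and 20.7. Beyond a further gap lies the testis pair Hist1h2ba and Hist1h2aa, at 0 in both pups.

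**Figure D3:**
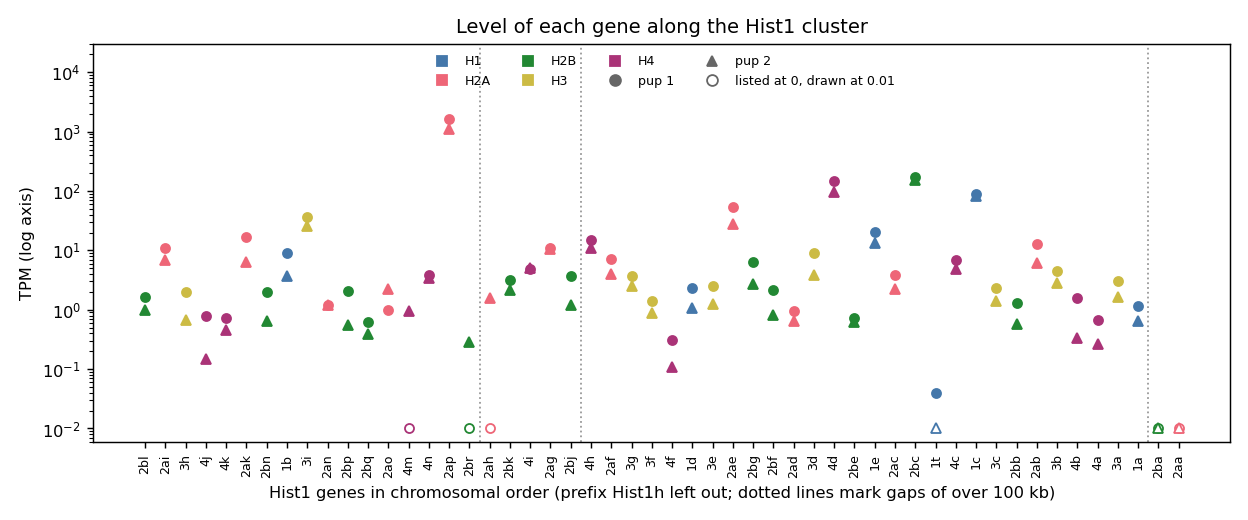
TPM (log axis) of the 52 Hist1 genes in chromosomal order, coloured by class, pup 1 as circles and pup 2 as triangles, with open symbols at 0.01 for genes listed at 0. High and low genes are neighbours along the cluster: Hist1h2bc at 172 and 156 stands beside Hist1h2ac at 3.82 and 2.20. Hist1h2br, beside Hist1h2ap, is drawn without its 381-base transcript.

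Many H2A and H2B genes sit head to head and share the stretch between their starts. There were 12 such divergent pairs, with 175 to 305 bases between the annotated genes. By TPM alone, the H2A gene was the higher in both pups in 7 pairs and the H2B gene in 3. Not all of these pairs were resolved. Credibility intervals overlapped in both pups for Hist1h2ao with Hist1h2bq, Hist1h2ah with Hist1h2bk and Hist1h2ad with Hist1h2bf. In pup 2 they also overlapped for Hist2h2ac with Hist2h2be. Hist1h2ap and Hist1h2br, with 235 bases between them, stood at 1642 and 0 in pup 1 and at 1093 and 0.29 in pup 2. The Hist1h2br values leave out its 381-base transcript, so they are not the level of the whole gene. Hist1h2br and its near-copy Hist1h2bq summed to 0.63 in pup 1 and 0.68 in pup 2. The H2B gene was the higher in Hist1h2ac and Hist1h2bc, with 250 bases between them, at 3.82 and 172 in pup 1 and at 2.20 and 156 in pup 2. Hist1h2ae stood above Hist1h2bg, at 53.8 against 6.29 in pup 1 and at 27.7 against 2.75 in pup 2. Other pairs were closer: Hist2h2ac and Hist2h2be stood at 5.34 and 2.90 in pup 1 and at 2.94 and 2.74 in pup 2. The order of Hist1h2an and Hist1h2bp differed between the pups, at 1.21 and 2.05 in pup 1 but 1.19 and 0.56 in pup 2, with overlapping credibility intervals in each pup.

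Promoters of the leading H2A gene, of Hist1h2ac, in 1 of the 3 pairs with the higher H2B gene, and of the leading H4 and H1 genes are printed to show the elements searched for. They are from RefSeq (GRCm38.p6) and run from 250 bases before to 50 after the annotated start, and 59 of the 64 members had one. Capitals mark matches on either strand to 4 motifs: the TATA box (TATAAA), the CCAAT box (CCAAT, or ATTGG on the other strand), the octamer known from H2A and H2B promoters (ATTTGCAT, or ATGCAAAT) and the H1 box (AAACACA).
Hist1h2ap promoter, chr13:21833426-21833725, minus strand: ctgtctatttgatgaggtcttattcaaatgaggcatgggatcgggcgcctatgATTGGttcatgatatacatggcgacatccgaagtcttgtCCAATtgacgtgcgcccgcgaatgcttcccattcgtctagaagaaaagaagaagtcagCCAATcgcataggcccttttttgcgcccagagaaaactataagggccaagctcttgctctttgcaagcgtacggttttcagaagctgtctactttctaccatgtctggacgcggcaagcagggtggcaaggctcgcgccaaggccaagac
Hist1h2ac promoter, chr13:23683910-23684209, minus strand: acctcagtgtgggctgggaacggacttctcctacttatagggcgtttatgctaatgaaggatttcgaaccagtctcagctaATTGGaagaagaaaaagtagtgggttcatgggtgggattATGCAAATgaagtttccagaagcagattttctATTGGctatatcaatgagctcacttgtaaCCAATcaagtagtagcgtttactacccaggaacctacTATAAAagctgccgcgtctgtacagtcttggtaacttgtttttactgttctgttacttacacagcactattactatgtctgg
Hist1h4d promoter, chr13:23581318-23581617, plus strand: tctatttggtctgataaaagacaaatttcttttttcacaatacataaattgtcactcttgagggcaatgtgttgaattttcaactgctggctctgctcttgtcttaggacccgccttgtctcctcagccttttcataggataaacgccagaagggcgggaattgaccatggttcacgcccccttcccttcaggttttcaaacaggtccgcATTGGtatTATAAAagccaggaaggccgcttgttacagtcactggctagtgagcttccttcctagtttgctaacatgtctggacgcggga
Hist1h1c promoter, chr13:23738557-23738856, plus strand: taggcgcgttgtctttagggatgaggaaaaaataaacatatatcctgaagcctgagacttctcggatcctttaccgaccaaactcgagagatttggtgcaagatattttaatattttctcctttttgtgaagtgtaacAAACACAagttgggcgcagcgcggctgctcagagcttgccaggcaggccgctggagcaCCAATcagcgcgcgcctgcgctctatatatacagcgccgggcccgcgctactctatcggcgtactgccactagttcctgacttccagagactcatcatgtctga
The window of Hist1h2ac covers the whole stretch between it and Hist1h2bc. A CCAAT box was found in all promoters of H1 (6), H2A (18), H2B (13) and H3 (10) genes but in 3 of the 12 of H4 genes, beside 37.4% of all 32851 RefSeq promoters. TATAAA was found in 35 of the 59, beside 13.6% of all promoters. Matches to the octamer came from 7 H2A and 4 H2B promoters and from no H1, H3 or H4 promoter, beside 1.74% of all. The H1 box was found in 5 of the 6 H1 promoters, in 2 of the 18 H2A and in 1 of the 13 H2B promoters, beside 7.18% of all. No H3 or H4 promoter had it. Windows of a divergent pair overlap, so H2A and H2B counts share sequence, and these matches are letters, not measured binding.

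Members were lower in pup 2 across classes. Of the 45 members whose mean TPM was 1 or more, 41 (91.1%) had the lower TPM in pup 2, against 41.2% of the 13339 protein-coding genes at that level. Their median log2 ratio of pup 2 over pup 1, with 1 added to each TPM, was -0.59, against 0.03 for those genes, of which the middle 90% lay between -0.25 and 0.29. In bulk tissue, fewer cells of a type and less of an RNA per cell cannot be told apart. The exceptions were Hist1h2ao, Hist3h2a, Hist3h2ba and Hist1h4i. Of these, Hist3h2a stood at 16.3 and 16.7, Hist3h2ba at 6.42 and 7.65 and Hist1h4i at 4.95 and 4.99, each with overlapping intervals. Hist1h2ao shares nearly all its sequence with Hist1h2ap.

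The class sums differed in how far they were lower. The log2 ratio of summed TPM was -0.81 for H3, -0.57 for H4, -0.53 for H2A, -0.27 for H1 and -0.21 for H2B. Ratios of depth-scaled expected counts, pup 2 over pup 1, were 0.528 for H3 (exact 95% binomial interval 0.486 to 0.574), 0.660 for H4 (0.622 to 0.699), 0.701 for H2A (0.689 to 0.712), 0.866 for H1 (0.834 to 0.898) and 0.879 for H2B (0.845 to 0.915). The H3 interval lies below those of the other classes, while the H1 and H2B intervals overlap. Without Hist1h2ap, the log2 ratio of the H2A sum was -0.34. The H1 sum rests mainly on Hist1h1c (73.2% of it in pup 1 and 81.5% in pup 2) and the H2B sum on Hist1h2bc (83.9% and 87.9%). By single members at a mean TPM of 1 or more, the median log2 ratios were closer for most classes. They were -0.63 for H1, -0.59 for H2A, -0.61 for H2B, -0.63 for H3 and -0.41 for H4. The Hist3 pair had a count ratio of 1.03 (0.959 to 1.11).

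A stricter rule asked for 3 things: a TPM at least 2-fold apart, credibility intervals that did not meet, and 100 or more expected counts on average. It could be applied to 22 members. Of these, 5 (22.7%) were lower in pup 2, beside 0.128% of 13243 protein-coding genes, and 0 were higher, beside 0.310% of those genes. With a 1.5-fold limit, 10 (45.5%) were lower and 0 higher, beside 0.536% and 1.08% of protein-coding genes. At 3-fold, 0 of the 22 were lower or higher, beside 0% and 0.0906%. With the count limit at 10 in place of 100, 10 of 55 members (18.2%) were lower and 0 higher, beside 0.235% and 0.604%. With it at 1000, 0 of 7 members were lower or higher, beside 0.013% and 0.104%. The credibility interval covers quantification of 1 library and not the spread between animals.

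The 5 members beyond the 2-fold limit were 2 H2A genes, 2 H3 genes and an H1 gene. For Hist1h2ak (chr13:21753435-21753827) the TPM was 16.7 in pup 1 (interval 14.1 to 19.0) and 6.29 in pup 2 (4.83 to 7.84), 2.66-fold lower. Hist1h1b (chr13:21779883-21780625), which shares none of its 100-base windows with another gene, stood at 9.01 (7.81 to 10.1) and 3.71 (2.97 to 4.44), 2.43-fold lower. Hist1h3d (chr13:23575763-23577011) was 2.31-fold lower in pup 2, at 3.88 against 8.98. For Hist1h2ab (chr13:23751126-23751598) the values were 12.8 in pup 1 and 6.03 in pup 2, 2.13-fold lower. Hist2h3b was 2.10-fold lower, and the summed counts of Hist2h3b, Hist2h3c1 and Hist2h3c2 had a ratio of 0.409 (0.352 to 0.473). Hist2h3b lies just inside the limit and Hist1h2ae, 1.94-fold lower, just outside it.

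At the other end, 9 of the 22 members differed by no more than 1.25-fold, beside 89.6% of protein-coding genes. They were Hist1h1c, Hist1h2ag, Hist1h2bc, Hist1h4i, Hist2h2aa1, Hist2h2aa2, Hist2h2be, Hist3h2a and Hist3h2ba, a group formed after their values were seen. Hist1h1c, for example, stood at 89.0 and 82.2 and Hist2h2be at 2.90 and 2.74. Near values were not always within quantification error. The credibility intervals of Hist1h1c (85.4 to 90.2 and 78.6 to 83.3) did not meet, nor did those of Hist1h2bc (164 to 174 and 148 to 158). Those of the other members of the group overlapped. Among all 22 members, intervals lay apart for 14 in the same direction as Hist1h1c and Hist1h2bc, and for 0 in the other. Of 13243 protein-coding genes, 8.42% had intervals apart in that same direction. By the transcript lengths in the deposited tables (GENCODE M4), the 9 members within 1.25-fold had a median of 727 bases (485 to 2620). Of these, 8 were longer than 500 bases. The other 13 had a median of 473 bases (393 to 1630), and 4 were longer than 500. By GENCODE M21 lengths the medians were 727 and 488 bases, with 8 of the 9 and 6 of the 13 longer than 500. Hist2h4 was the longest of the 13 in the tables, at 1630 bases, with a TPM of 8.43 against 4.64. So genes of the same class parted in the size of the difference: Hist1h1c and Hist1h1b among H1, Hist3h2a and Hist1h2ak among H2A, and Hist1h4i and Hist1h4d among H4.

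**Figure D4:**
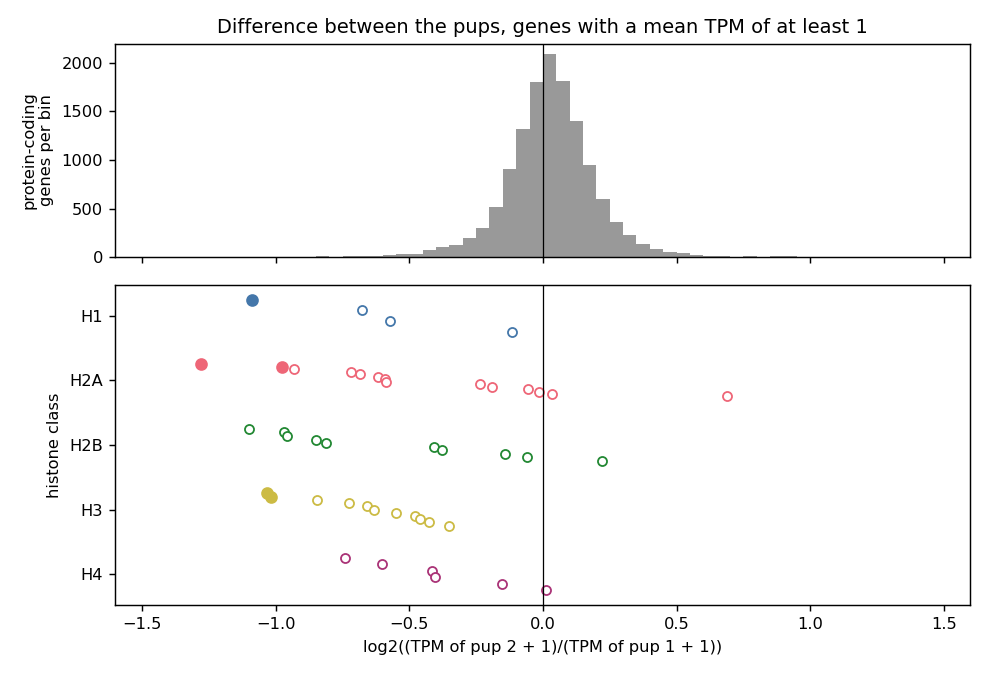
Top, protein-coding genes at a mean TPM of 1 or more per bin of log2 ratio (15 of them lie beyond the axis); bottom, the 45 histone members at that level by class, filled where the 2-fold rule was met. Most members lie to the left of the bulk of protein-coding genes, whose middle 90% runs from -0.25 to 0.29, and the 5 filled points lie near or below -1.

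Genes that process histone mRNA were as often lower as higher in pup 2. Of the 20 genes of that list at a mean TPM of 1 or more, 10 were lower in pup 2 and the median log2 ratio was -0.01. Snrpb, a core protein gene of small nuclear ribonucleoproteins, was the highest of the list at 273 in pup 1 and 263 in pup 2. Slbp, the stem-loop binding protein, stood at 77.04 in pup 1 and 75.4 in pup 2. Lsm10 and Lsm11, which encode proteins of the U7 particle, stood at 36.02 and 40.03 and at 2.97 and 3.08. The RNA of that particle, Rnu7, was listed at 0 in both pups, and it is shorter than the size limit of the libraries. Casp8ap2, needed for histone processing, stood at 16.2 and 13.1, a log2 ratio of -0.29. The helicase gene Dhx9, at 9.03 and 5.63, had the lowest ratio of the list, -0.60.

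Regulators of histone transcription and of S-phase entry had 6 of 16 genes lower and a median of 0.03. The highest were the cell cycle inhibitor gene Cdkn1a at 494 and 511, Nfyc, a subunit of the factor that binds CCAAT boxes, at 38.3 and 40.7, and E2f4 at 26.1 and 31.9. Npat, the coactivator that cyclin E and Cdk2 switch on at the histone clusters and which was counted with the processing genes, stood at 4.22 and 4.39. Pou2f1, which binds the octamer, stood at 4.21 and 4.20, and Hinfp, which binds H4 promoters, at 4.82 and 4.87. None of the genes in the regulator, processing, S-phase, chaperone or replacement lists met the 2-fold rule in either direction. Few protein-coding genes met it at all, 0.128% as lower and 0.310% as higher in pup 2.

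Of the cell cycle genes, those of S phase lay on both sides of 0 and those of mitosis on the lower side. Of 25 genes for DNA replication, 14 were lower in pup 2, with a median of -0.02: the sliding clamp gene Pcna stood at 92.1 and 94.2, the helicase gene Mcm6 at 47.1 and 50.03 and the thymidylate synthase gene Tyms at 61.05 and 60.07. Of 20 mitosis genes, all 20 were lower, with a median of -0.39 and a range of -0.50 to -0.13. The kinase gene Cdk1 stood at 126 and 88.8, Ube2c at 89.3 and 63.6 and the survivin gene Birc5 at 78.7 and 57.5. None of these 45 genes met the 2-fold rule, beside 0.128% (lower) and 0.310% (higher) of protein-coding genes.

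Replacement histones and histone chaperones had medians near that of all protein-coding genes. The 16 replacement genes summed to 4368 TPM in pup 1 and 4380.3 in pup 2, against 2693 and 1900.4 for the replication-dependent genes. Most of these replacement mRNAs are polyadenylated, so with the priming not stated the members' levels may be too low beside them. No order is read from the sums. Among the 12 at a mean TPM of 1 or more, 6 were lower and the median was 0.02. H3f3a stood at 1370.03 and 1425, H3f3b at 1131 and 1121, and the H2A variant gene H2afz at 730.3 and 673. The lowest ratio there was -0.39, for Cenpa, the H3 variant of centromeres, at 59.9 and 45.4. Of 14 chaperone genes 8 were lower, with a median of -0.03, and the highest were Rbbp7 at 235 and 229, Rbbp4 at 129 and 127 and Nap1l4 at 75.2 and 77.9.

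**Figure D5:**
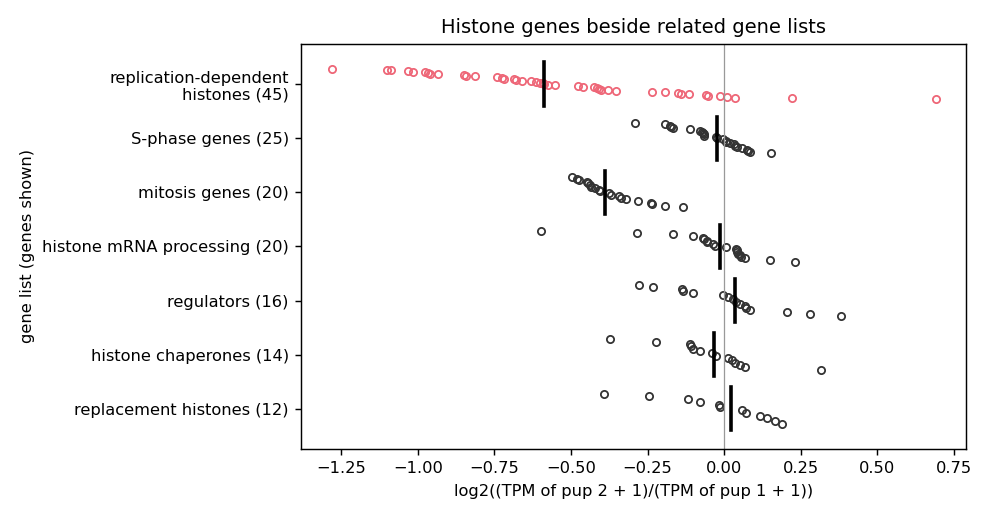
Log2 ratios of pup 2 over pup 1 (horizontal axis) for histone members and 6 related gene lists, 1 circle per gene at a mean TPM of 1 or more, numbers shown in brackets and medians as black bars. Histone members (median -0.59) and mitosis genes (-0.39) lie to the left, the other lists between -0.03 and 0.03.

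Markers of other tissues also moved between the pups. All 8 liver genes checked were higher in pup 2, with a summed TPM of 134 against 211 and a median log2 ratio of 0.82. The 2-fold rule was met by 4 of them (Afp, Apoh, Fga and Fgb), beside 0.310% of protein-coding genes in that direction. The highest of the 8 was the carrier gene Ttr at 57.1 and 60.4, followed by Ahsg at 24.7 and 43.6 and Afp at 20.8 and 47.2. Of 6 erythroid genes at that level, 5 were higher, and the 9 found summed to 1525 and 1928, led by the globin genes Hba-a2 (646.0 and 815), Hbb-bs (429 and 529) and Hba-a1 (268 and 347). The 8 genes of the white blood cell list summed to 120.3 and 109, led by S100a9 (56.2 and 48.6), Lyz2 (48.3 and 43.6) and Kit (12.3 and 13.8). Of the 4 at a mean TPM of 1 or more, 3 were lower and Kit was higher. Kit is not read here as a measure of white blood cells. The part of these tissues in the histone differences was not tested.

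Credibility intervals were wider for members than for most protein-coding genes. Among the 22 members counted under the 2-fold rule, the upper end of the credibility interval was a median of 1.26 times the lower in pup 1 and 1.35 times in pup 2, beside 1.15 in both pups for protein-coding genes. In pup 1 the upper end was 1.29 times the lower for Hist1h1b, with 240 counts and no shared window. It was 1.14 times for Hist2h2aa2, with 3900 counts and all windows shared. For Hist1h2ag, with 178 counts and 76.2% of windows shared, it was 2.08 times. Read depth and sharing both differ between these genes, and the part of each in interval width was not tested. Of the 46 members with a sequence of the length in the tables, a median of 58.2% of 100-base windows occurred in another gene, and in 26 members more than 50% did. Members listed at 0 in 1 pup are near-copies in several cases: Hist1h4m, at 0 and 0.94, shares most windows with other genes, and with its neighbour copy Hist1h4n summed to 3.91 and 4.36. Hist1h2ah was listed at 0 in pup 1 and 1.58 in pup 2, and Hist2h3c1 at 1.11 and 0, and neither is read as a difference. Some windows are shared outside the set, where a match on either strand was counted. They occur in the replacement gene H2afx (81.04 and 68.2) and in Hist1h2aj, annotated as a pseudogene, at 9.45 and 1.15. They also occur in entries annotated as antisense, such as Gm20632 (4.05 and 4.41), which holds every window of Hist2h2aa2. The shares of windows given here are therefore not a measure of histone copies alone.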

How the data were processed

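Total RNA libraries of 2 littermate newborn stomachs were quantified by the authors against mm10 with annotation M4, per the file headers; the sources used here do not name the aligner or quantifier, how cDNA was primed or whether counting used strand. The authors deposited expected counts, TPM with a posterior mean TPM, 95% credibility bounds of TPM and the percent that each isoform takes of its gene. Genes were matched here to GENCODE M21 (the same assembly) on Ensembl identifiers without version (42462 of 43346 matched). TPM divides by transcript length, so short transcripts such as histone mRNAs depend strongly on it.

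Computed from these were sums, means ± SD, log2 ratios with a pseudocount of 1, and the rule of a 2-fold difference, a mean count of at least 100 and intervals apart; the code was tested on simulated data. A gene with 0 counts may have up to 3 counts (0.0582 CPM in pup 1, 0.0600 CPM in pup 2; counting error only). Scaling alternatives used edgeR 4.0.16 (TMM) and DESeq2 1.42.0 on rounded expected counts in R 4.3.3, and other steps used Python 3.11.15, pandas 2.3.3 and SciPy 1.17.1. No test across samples was made, since there is 1 group.

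Named genes are the 4 members of highest mean TPM per class, members beyond the 2-fold rule, all Hist3 and Hist4 members, 3 testis genes, members at 0 in both pups, and from each list the 3 of highest mean TPM plus Slbp, Npat, Lsm10, Lsm11, Casp8ap2, Pou2f1 and Hinfp; further genes, such as Dhx9, Cenpa, Apoh, Fga and Fgb, were picked with values in view. The members and the gene lists (histone mRNA processing, regulators, S phase, mitosis, chaperones, replacement histones, and markers of stomach, erythroid, liver, germ and white blood cells) were chosen with earlier results of these data known.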

Additional observations from a re-analysis of the deposited data

How the results depend on the processing

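Of 71 recomputed values for 17 results, 58 kept their direction and stayed within their limits, 13 moved and none changed sign. The 58 include outcomes that were fixed in advance. With 2 pups, a sum or share with 1 pup left out always lies within the SD of the mean. The count of 0 members higher in pup 2 could not rise at a stricter fold or count limit. Class sums, the Hist1 share and the log2 ratios of the H1, H2A, H2B and H4 sums moved less than the spread between pups or the counting interval. The H3 log2 ratio was -0.94 with edgeR TMM and -0.95 with DESeq2 size factors. Both come from expected counts, which are not divided by transcript length as TPM is. The scaling factors themselves were close to 1: 1.007 (pup 1) and 0.993 (pup 2) for TMM, 1.006 and 0.994 for DESeq2. The median log2 ratio of members was -0.72 from expected counts with either scaling. There 1 was added to each scaled count, not to each TPM. From TPM it was -0.68 with a pseudocount of 0.1 and -0.42 with no filter. Over the 14 members with under 50% of windows shared it was -0.67. Without Hist1h2ap, an alternative chosen after seeing the data, it was -0.58. Members detected, 38 in the report, numbered 56 with a TPM limit of 0.1, 17 with a limit of 5, and 40 to 48 with 1 pup left out. Members lower under the 2-fold rule numbered 10 of 22 at 1.5-fold and 0 of 22 at 3-fold, beside 0.536% and 0% of protein-coding genes. Where the mean count had to reach 10 they numbered 10 of 55 (18.2%), beside 0.235%, and where it had to reach 1000, 0 of 7, beside 0.013%. At a mean TPM of at least 5, 20 of 22 members were lower in pup 2, fewer because fewer were counted. Except for that count, the cause was not tested. Leaving out a pup gave a summed TPM of 1900.4 to 2693 for all members. No paired analysis was possible because there is 1 group with 1 library for each pup.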
